A study of Rattus norvegicus with 6 samples.

Results

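Immediate early genes are genes that cells switch on within minutes of a stimulus, from factors already present and without new protein. The 10 genes described here are Fos, Fosb, Jun, Junb, Egr1, Atf3, Klf6, Ier2, Ier3 and Myc. They were measured by every probe, control spots aside, whose accession without its version is listed for one of these genes in a RefSeq gene table. That gave 18 probes of the 61453 analysed, and 10 genes of the 15645 with a symbol. Of the 10 genes, 6 had 1 probe, Fos, Jun and Junb had more than 1, and Klf6 had 6. The probes of 1 gene report the same transcript and are not replicates of the treatment.

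Renal cortex, the outer layer of the kidney that holds the glomeruli and most proximal tubules, was taken from male Sprague-Dawley rats bought at 5 weeks of age. The control group of 3 rats received corn oil for 4 weeks, and the dibromoethane group of 3 rats received 1,2-dibromoethane, a brominated compound once used to fumigate soil, at 75 mg/kg/day for the same 4 weeks. No transgene or deletion is involved, the strain is outbred, and each rat gave 1 single-colour array, so that animal and array cannot be told apart. How long after the last dose the kidneys were taken is not given in the sources used here, and transcripts of this class are short-lived.

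Each array's background-subtracted signal was put on the log2 scale after division by its own 75th percentile over all probes, so that 0 is the level of a probe at that percentile and 1 unit is a doubling within a probe. A level is a value on this scale, and a difference is dibromoethane minus control on it. Between 59.2% and 67.8% of the probes on an array were well above background, the scanner program's own call of a spot clearly brighter than its surroundings. Markers of the labelled tissue, among them the proximal tubule genes Slc34a1 and Lrp2, were well above background on all 6 arrays. In bulk tissue, fewer cells of a type and less RNA per cell cannot be told apart. Both groups were present on slide 1 (control replicates 1 and 2 with dibromoethane replicate 2) and on slide 2 (control replicate 3 with dibromoethane replicate 1). Slide 3 carried dibromoethane replicate 3 alone and shared its scan day with slide 1. A within-slide value therefore rests on 1 to 2 rats a group.

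In the textbook pathway, growth factors, stress and injury activate MAP kinases, which phosphorylate ternary complex factors such as ELK1. With serum response factor these sit on CArG boxes near the start sites of Fos, Egr1 and related genes, while cyclic AMP response elements bind CREB and ATF proteins. FOS and FOSB pair with JUN and JUNB to form AP-1, EGR1 is a zinc finger factor held back by NAB proteins, and MYC pairs with MAX. ATF3 is a stress-induced member of the CREB/ATF family, and KLF6 is a Kruppel-like zinc finger factor. IER2 is a small nuclear protein, and IER3 acts on survival and kinase signalling and is not itself a DNA-binding factor, so the name transcription factor does not cover every member. In kidney these genes are known for their brief induction in tubules after ischaemia or toxic injury.

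Promoter windows in RefSeq (assembly GRCr8, 250 bases before to 50 after the annotated start) were found for 5 of the 10 members, Fosb, Junb, Egr1, Klf6 and Ier2. These windows were searched on both strands for the CArG box, the cyclic AMP response element TGACGTCA and TGANTCA. With any base allowed at N, TGANTCA is a looser form of the AP-1 element. No match overlapped a match of another motif. The windows of Egr1, Klf6 and Ier2 are shown because only these held a match. Egr1 and Klf6 held the CArG box, and Ier2 held the cyclic AMP response element. The windows of Fosb and Junb held 0 matches of any of these motifs. A relation between matches and the differences reported below was not tested. Capitals mark the matches, and each window is written 5′ to 3′ on the gene's own strand. The Egr1 window lies at chr18:26736828-26737127 on the plus strand, the Klf6 window at chr17:69458429-69458728 on the minus strand and the Ier2 window at chr19:40399123-40399422 on the plus strand.
Egr1: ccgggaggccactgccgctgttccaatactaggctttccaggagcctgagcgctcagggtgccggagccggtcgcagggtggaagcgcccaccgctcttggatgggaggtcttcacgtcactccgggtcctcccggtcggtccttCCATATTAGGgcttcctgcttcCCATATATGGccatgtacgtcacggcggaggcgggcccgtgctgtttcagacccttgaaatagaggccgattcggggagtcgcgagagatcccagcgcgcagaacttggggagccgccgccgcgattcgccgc
Klf6: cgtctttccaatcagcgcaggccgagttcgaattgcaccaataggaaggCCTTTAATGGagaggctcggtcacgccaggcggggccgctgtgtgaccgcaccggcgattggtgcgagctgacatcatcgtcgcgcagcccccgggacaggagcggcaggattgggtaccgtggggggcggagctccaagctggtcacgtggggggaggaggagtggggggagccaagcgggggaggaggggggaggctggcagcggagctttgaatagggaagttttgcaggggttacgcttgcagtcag
Ier2: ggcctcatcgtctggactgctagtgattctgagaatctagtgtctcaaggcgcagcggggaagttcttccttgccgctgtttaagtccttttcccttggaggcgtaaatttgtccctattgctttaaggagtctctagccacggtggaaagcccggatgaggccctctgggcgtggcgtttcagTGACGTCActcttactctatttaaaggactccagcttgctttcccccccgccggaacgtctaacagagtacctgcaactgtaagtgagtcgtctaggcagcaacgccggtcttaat
Egr1 held 2 CArG boxes, whose first bases lie 105 and 83 bases before the start, and Klf6 held 1 at 201 bases before it. Ier2 held TGACGTCA at 66 bases before its start. Over all 33469 windows of this length, 1.64% held a CArG box, 1.83% held TGACGTCA and 7.33% held TGANTCA, which none of the 5 member windows held. A match is a description of the letters in the window and not of binding in these rats.

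The comparison asks whether the immediate early genes of the renal cortex differed between rats given 1,2-dibromoethane and rats given corn oil. No member passed the test: of 10 genes, 0 were called at a limma adjusted p of 0.05, with 3 at an unadjusted p under 0.05 (1 higher, 2 lower), and the members' adjusted p lay between 0.362 and 0.914. Over all 28961 features tested, 9 were called, which is 0.0311%, and at an unadjusted p under 0.05 there were 11.1%, made up of 4.53% higher and 6.62% lower. By sign, 5 members had a positive and 5 a negative difference, and their median was -0.0064, beside -0.015 over all features. That median had no settled sign: it was -0.071 with the filter on all 6 arrays, which drops Fos, -0.090 with a slide block, and -0.079 to 0.039 when 1 array was left out, with the positive value without dibromoethane replicate 1. Egr1 had the most positive difference at 0.80 and Klf6 the most negative at -0.39. The groups did not overlap for 4 members, Egr1 on the higher side and Klf6, Ier3 and Myc on the lower side, where 19.5% of all features did not overlap (7.38% higher and 12.1% lower). All 10 genes passed the filter on dim probes, Fos only through the dibromoethane group, since 1 of its control arrays was not well above background.

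**Figure D1:**
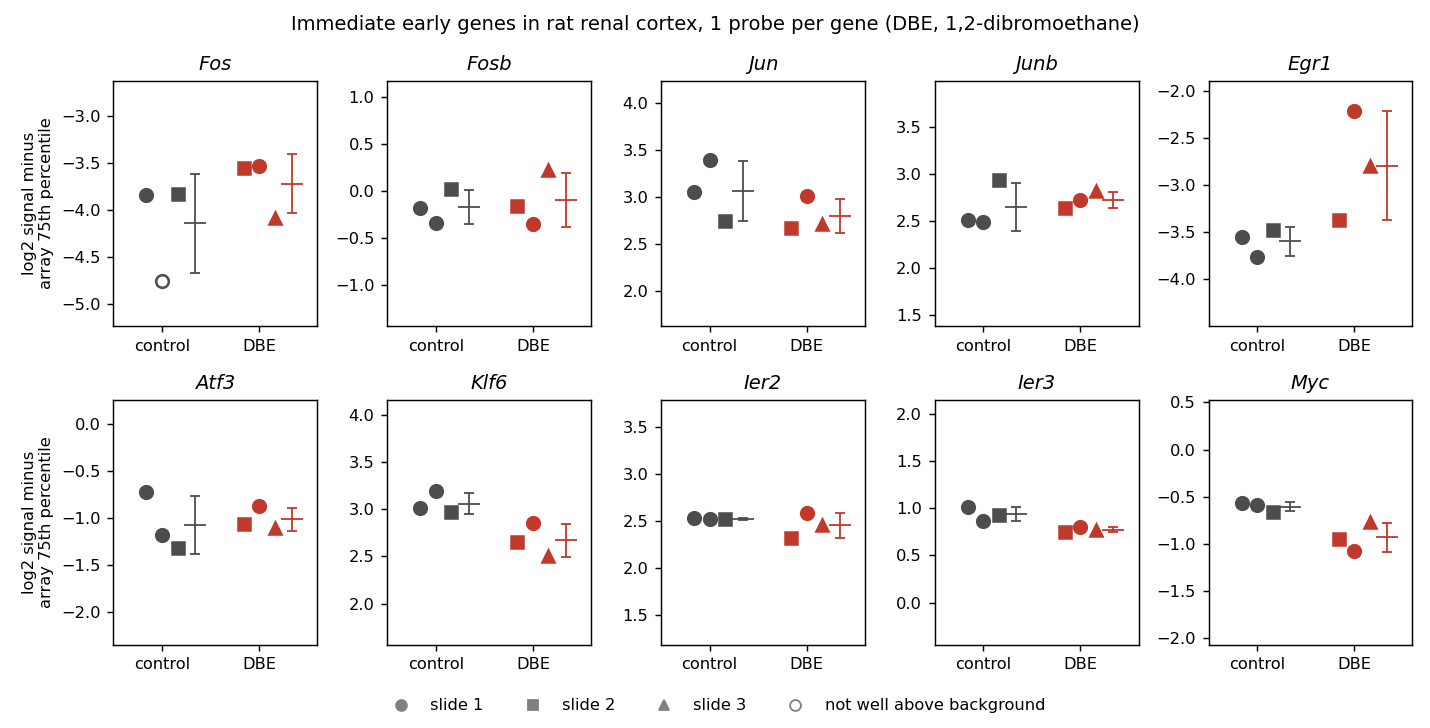
Level of each of the 10 genes on each array, in log2 units from that array's 75th percentile, for 3 control and 3 dibromoethane (DBE) rats; symbols give the slide, an open symbol a probe not well above background, and bars the mean ± SD of the group. The groups are apart for Egr1, Klf6, Ier3 and Myc, and the widest scatter within groups is in Fos and Egr1.

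Egr1 encodes a zinc finger factor that is a common readout of MAP kinase activity. Its levels were -3.55, -3.77 and -3.48 in control replicates 1 to 3 and -3.37, -2.22 and -2.80 in dibromoethane replicates 1 to 3. All 3 treated rats thus lay above all 3 controls, dibromoethane replicate 1 by little and replicate 2 by the most. The mean was -3.60 ± 0.15 (SD, n = 3) in controls and -2.79 ± 0.58 (SD, n = 3) in treated rats, a 1.74-fold difference (log2 0.80, SE 0.29, 95% interval 0.10 to 1.50, limma adjusted p = 0.405). Within slide 1 the difference was 1.44 and within slide 2 it was 0.11. Without dibromoethane replicate 2 the difference was 0.51, and with normexp background correction at an offset of 50 it was 0.47. The probe's processed signal was 59.8 to 180 on arrays where the 75th percentile of the arrays lay between 816 and 946.

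The AP-1 subunits come in both families. Fos, the founding Fos protein, was measured by 2 probes. The brighter gave levels of -3.84, -4.75 and -3.83 in control replicates 1 to 3 and -3.55, -3.53 and -4.08 in dibromoethane replicates 1 to 3. The groups overlapped, and control replicate 2, the lowest of the 6, was the array not well above background. The difference of the brighter probe was 0.42 (SE 0.29, 95% interval -0.30 to 1.14, limma adjusted p = 0.613). It was 0.12 without control replicate 2 and 0.19 with normexp background correction. The other Fos probe was well above background on dibromoethane replicate 1 alone, with a level of -4.36 there and levels between -6.15 and -5.24 on the other 5 arrays, so it was not tested.

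Fosb, a Fos relative, stood at -0.18, -0.34 and 0.023 in controls and at -0.16, -0.35 and 0.22 in treated rats. The range of the treated group took in that of the controls. The difference was 0.071 (SE 0.17, 95% interval -0.35 to 0.49, limma adjusted p = 0.898), and it was -0.086 within slide 1 and -0.18 within slide 2. Fitting slide as a block turned it to -0.13.

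Jun encodes the AP-1 partner that can also pair with itself. Its brighter probe gave 3.05, 3.39 and 2.75 in controls and 2.67, 3.01 and 2.71 in treated rats. Control replicate 2 was the highest, and the groups overlapped. The difference was -0.26 (SE 0.18, 95% interval -0.71 to 0.18, limma adjusted p = 0.612), and -0.10 without control replicate 2. A second Jun probe had a difference of -0.36 (SE 0.24), with control replicate 2 again the highest at 2.14 and dibromoethane replicate 3 the lowest at 1.19.

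Junb, whose product is a weaker activator than JUN, stood at 2.51, 2.48 and 2.94 in controls and at 2.64, 2.72 and 2.81 in treated rats. The treated rats lay inside the range of the controls. The difference was 0.083 (SE 0.14, 95% interval -0.26 to 0.43, limma adjusted p = 0.848). It had opposite signs on the slides, 0.23 within slide 1 and -0.30 within slide 2. The dimmer Junb probe gave a difference of 0.065 and the same signs, 0.37 and -0.20.

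Klf6 was the member with the most probes and the most negative difference. The brightest of the 6 gave 3.01, 3.19 and 2.98 in controls and 2.66, 2.85 and 2.51 in treated rats. All controls lay above all treated rats, dibromoethane replicate 2 being the nearest to them. The mean was 3.06 ± 0.11 (SD, n = 3) in controls and 2.67 ± 0.17 (SD, n = 3) in treated rats, 1.31-fold lower (log2 -0.39, SE 0.12, 95% interval -0.67 to -0.11, limma adjusted p = 0.362). Within slide 1 the difference was -0.25 and within slide 2 it was -0.32. The other 5 probes were lower in the treated group too, with differences of -0.33, -0.41, -0.39, -0.38 and -0.13. For 4 of the 6 probes the groups did not overlap (of all probes tested singly, 19.4% did so in either direction and 11.8% on the lower side). The smallest adjusted p of a Klf6 probe, with each of 37273 probes tested by itself in limma, was 0.338. Of the 2 probes whose groups overlapped, one, with a difference of -0.33, missed by a small margin, dibromoethane replicate 2 at 0.32 and control replicate 3 at 0.30. The other was the probe with a difference of -0.13.

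**Figure D2:**
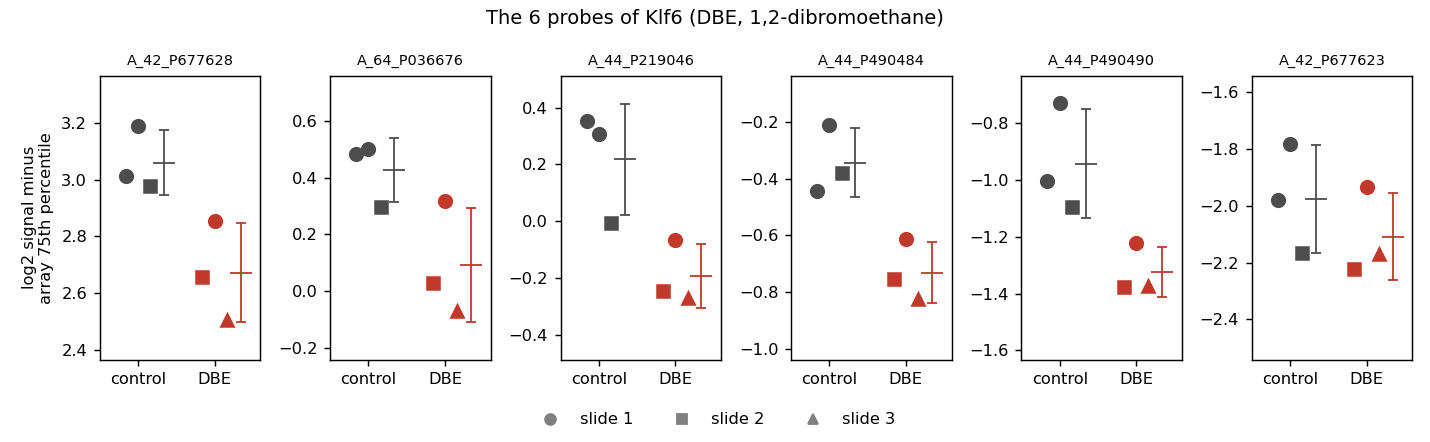
Level of each of the 6 Klf6 probes on each array (log2 units from that array's 75th percentile), with the group mean ± SD; symbols give the slide, and each panel has its own axis of the same span. In every panel the mean of the dibromoethane (DBE) group lies under that of the controls, and dibromoethane replicate 2 is the highest treated rat.

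Myc, which drives ribosome and growth genes as a dimer with MAX, gave -0.57, -0.59 and -0.66 in controls and -0.95, -1.08 and -0.77 in treated rats. The controls lay close together and above every treated rat, of which replicate 3 was the nearest. The mean was -0.60 ± 0.05 (SD, n = 3) in controls and -0.93 ± 0.16 (SD, n = 3) in treated rats, 1.26-fold lower (log2 -0.33, SE 0.10, 95% interval -0.57 to -0.09, limma adjusted p = 0.363). Within slide 1 the difference was -0.50 and within slide 2 it was -0.29. Leaving out 1 array at a time gave -0.41 to -0.26.

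Ier3, a regulator of survival also known as IEX-1, gave 1.02, 0.87 and 0.93 in controls and 0.75, 0.80 and 0.77 in treated rats. The groups lay side by side without overlap, with little spread in either. The difference was -0.17 (SE 0.07, 95% interval -0.34 to 0.0088, limma adjusted p = 0.462), and with normexp background correction it was -0.071. On the slides it was -0.14 and -0.18. Ier2 showed the narrowest control group, at 2.54, 2.52 and 2.52, and stood at 2.32, 2.59 and 2.46 in treated rats. The treated rats fell on both sides of the controls, with a difference of -0.071 (SE 0.09, 95% interval -0.29 to 0.14, limma adjusted p = 0.788). The difference was 0.058 within slide 1 and -0.20 within slide 2, and -0.0030 without dibromoethane replicate 1.

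Atf3, which is induced by DNA damage and by the integrated stress response in many cells, gave -0.72, -1.18 and -1.32 in controls and -1.06, -0.87 and -1.11 in treated rats. Control replicate 1 was the highest of all, and the treated rats lay within the range of the controls. Its difference was 0.058 (SE 0.17, 95% interval -0.35 to 0.47, limma adjusted p = 0.914). The interval corresponds to 0.783-fold to 1.38-fold. The sign of the difference changed without control replicate 3 (-0.064), without dibromoethane replicate 2 (-0.012) and with array weights (-0.010).

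**Figure D3:**
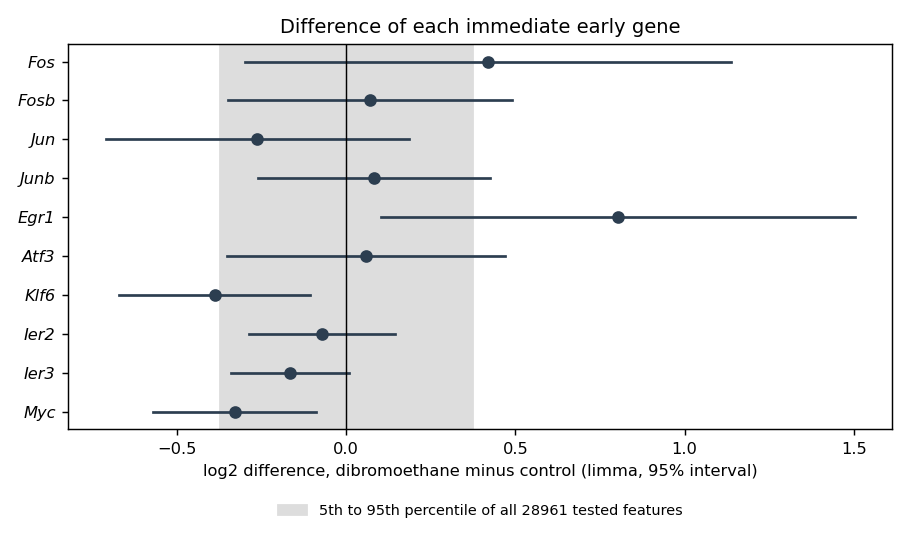
Difference of each of the 10 genes (log2, dibromoethane minus control; points) with its unadjusted 95% interval from limma (lines); the grey band spans the 5th to the 95th percentile of the differences of all 28961 tested features, -0.37 to 0.38. Fos, Egr1 and Klf6 have points outside the band, and the intervals of Egr1, Klf6 and Myc do not reach 0, none of which passed after adjustment.

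The members did not share a pattern over the 6 rats. Taking each gene against its own mean over the arrays, the highest array was control replicate 1 for 3 members, dibromoethane replicate 2 for 3, control replicate 2 for 2 and control replicate 3 and dibromoethane replicate 3 for 1 each. The lowest was control replicate 2 for 3, dibromoethane replicate 1 for 3, dibromoethane replicate 2 for 2 and control replicate 3 and dibromoethane replicate 3 for 1 each. Control replicate 2 shows this best, since it was the lowest array for Fos (-0.82 against the gene's mean, and not well above background) and Egr1 (-0.57) and the highest for Jun (0.46) and Klf6 (0.32). The mean deviation of an array over the 10 members ran from -0.092 in control replicate 2 to 0.12 in dibromoethane replicate 2.

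**Figure D4:**
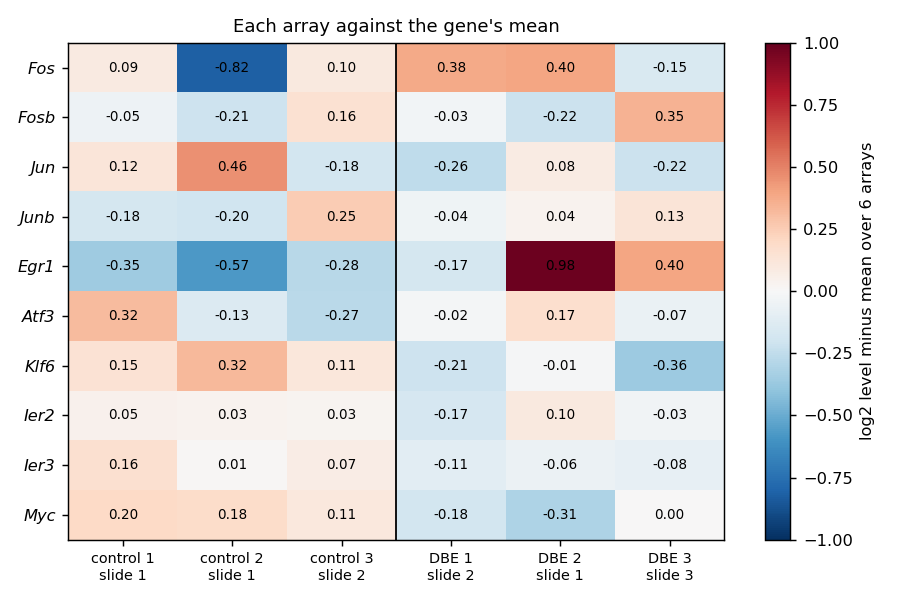
Level of each gene on each array minus the gene's mean over the 6 arrays (log2; red higher, blue lower), with control rats left and dibromoethane (DBE) rats right of the line. Only Egr1, Klf6, Ier3 and Myc separate the groups, and control replicate 2 is low for Fos and Egr1 but high for Jun and Klf6.

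Spread between rats of 1 group differed among the members. The pooled SD within groups was 0.43 for Fos and 0.42 for Egr1, at the 91.7th and 91.2nd percentile of all tested features, and 0.055 for Ier3, at the 7.71st percentile. The median was 0.21 over the members and 0.14 over all features. The Fos probe had a processed signal of 30.3 to 80.8, and the part of spot brightness in the spread of Fos and Egr1 was not tested.

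Among 11421 other tested genes with a symbol, the 3 whose array pattern lay nearest to that of Fos, by the root mean square difference of log2 levels centred on each gene's own mean over the 6 arrays, were Or4d10c, an olfactory receptor gene (0.12), Phf19, a Polycomb-associated protein (0.13), and Slc16a3, a lactate transporter (0.15). All 3 had control replicate 2 as their lowest array, as Fos did, whose probe was not well above background there. Or4d10c was dimmer than Fos on every array, at levels of -5.48 to -4.48. By the same measure the nearest member was Junb, at place 1702, followed by Atf3 at 1874. Fosb stood at 6184, Egr1 at 8011 and Jun at 10630. The measure takes in the size of the deviations as well as their shape. Egr1 shared with Fos both its lowest array, control replicate 2, and its highest, dibromoethane replicate 2. Junb shared the lowest alone, and Atf3 shared neither. With 6 arrays and so many genes, close patterns are to be found for many genes, and this order is a description.

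The genes around the members were grouped by role. Counts by sign in these lists and in the marker lists stand beside 53.6% of all features lower and 46.4% higher. Of the kinases and serum response factors upstream, 16 of 17 listed were tested, 11 with a negative and 5 with a positive difference, with a median of -0.049 and 0 called. The smallest p belonged to Mapk14, the p38 kinase (-0.23, SE 0.08, limma adjusted p = 0.387; 1 of its 2 other tested probes gave 0.095), and to Elk1, the ternary complex factor (-0.15, SE 0.07, limma adjusted p = 0.482). Dimer partners and relatives gave 10 lower and 6 higher of 16 tested, with a median of -0.061 and 0 called. Max, the partner of MYC, stood at -1.50, -1.47 and -1.41 in controls and at -1.74, -1.74 and -1.67 in treated rats. Like Myc itself it was lower in every treated rat (-0.26, SE 0.07, limma adjusted p = 0.346). Fosl2, a Fos relative, had a difference of -0.67 (SE 0.19, limma adjusted p = 0.355), -0.22 within slide 1 and -0.89 within slide 2. Its other tested probe gave -0.36. The brighter Fosl2 probe was itself dim, at -3.19 to -3.03 in controls and -4.05 to -3.36 in treated rats.

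The list of other immediate early genes was the longest. Of 40 listed, 33 were tested, 24 with a negative and 9 with a positive difference (over all features 53.6% were negative), with a median of -0.22 and 0 called. For 8 of the 33 the groups did not overlap with the treated rats below, and for 1 with the treated rats above, beside 12.1% and 7.38% of all features. At an unadjusted p under 0.05 there were 8, of which 7 were lower (over all features 11.1% in either direction and 6.62% lower). Within slide 1 the median was -0.11 and within slide 2 it was -0.031, with 18 of 33 lower in each, and with the mean of each gene's probes the median was -0.083. Phlda1, a regulator of cell survival, was the 1 of these 8 on the higher side, at -0.34, -0.37 and -0.41 in controls and 0.038, 0.21 and 0.16 in treated rats. No control reached the lowest treated rat (0.51, SE 0.08, limma adjusted p = 0.221). Sgk1, the serum and glucocorticoid-regulated kinase of sodium transport, stood at 3.48, 3.33 and 3.06 in controls and 2.65, 2.27 and 2.15 in treated rats. Its groups lay well apart (-0.93, 1.91-fold lower, SE 0.17, limma adjusted p = 0.236), with -1.14 within slide 1 and -0.41 within slide 2.

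Further genes of this list were picked after their values were seen. Those given with a difference were all lower, while 9 of the 33 tested genes of the list were higher. Per1, which serves the circadian clock as well, had a difference of -1.51 (SE 0.31, limma adjusted p = 0.263), with -2.10 within slide 1, -0.46 within slide 2 and -0.45 from its other probe. Plk3, a stress-activated kinase, gave -1.06 (SE 0.25, limma adjusted p = 0.318), with -1.38 within slide 1 and -0.56 within slide 2. Cebpb, a factor of the acute phase response, gave -0.77 (SE 0.23, limma adjusted p = 0.359), with -0.85 and -0.58 within these slides. For Nr4a1, an orphan nuclear receptor, the groups overlapped. Its levels were 1.74, 1.33 and 0.49 in controls and 0.55, 0.42 and 0.37 in treated rats, so that control replicate 3 lay among the treated rats and the difference (-0.74, SE 0.31, limma adjusted p = 0.454) came to 0.065 within slide 2. For Egr2, Egr4 and Nr4a3 no array was called well above background, and for Egr3 there were 2, so that Egr1 was the 1 gene of its family that could be tested. Fosl1, another Fos relative, also had 0 arrays above background.

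Feedback inhibitors switch the response off. Of 23 listed, 17 were tested, 12 lower and 5 higher, with a median of -0.061 and 0 called, while a fit with slide as a block gave a median of -0.21. Each of the 6 fits that leave out 1 array gave a more negative median than the full set, -0.16 to -0.12, and within slide 1 it was -0.28 and within slide 2 -0.067. Nab2, the corepressor that binds EGR1 and is itself an EGR1 target, stood at 0.62, 0.72 and 0.57 in controls and at 0.94, 1.20 and 0.96 in treated rats. Dibromoethane replicate 2 was the highest rat for Nab2. It was also the highest for 3 of the 10 members, Egr1, Fos and Ier2, and for Phlda1. A link between the levels of Egr1 and Nab2 was not tested. The difference of Nab2 was 0.40 (1.32-fold, SE 0.10, limma adjusted p = 0.329). The second Nab2 probe gave 0.27. Nab1, the other NAB gene listed, had a difference of the opposite sign (-0.28, SE 0.12, limma adjusted p = 0.466), and its groups overlapped. Dusp2, a nuclear phosphatase of MAP kinases, was lower in all treated rats (-0.57, SE 0.11, limma adjusted p = 0.24). Dusp1, the phosphatase most tied to the immediate early response and named here after its value was seen, gave -0.20 (SE 0.31, limma adjusted p = 0.83), and its groups overlapped.

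Targets of AP-1 and EGR1 had the most positive median. Of 25 listed, 20 were tested, 14 higher and 6 lower, with a median of 0.16 and 0 called, and at an unadjusted p under 0.05 there were 5, of which 4 were higher (over all features 11.1% in either direction and 4.53% higher). For 7 of the 20 the groups did not overlap with the treated rats above, and for 0 with the treated rats below, beside 7.38% and 12.1% of all features. Ccl2, the monocyte chemoattractant, was 1.80-fold higher (0.85, SE 0.11, limma adjusted p = 0.188), with levels of -1.05, -1.21 and -0.85 in controls and -0.15, -0.15 and -0.26 in treated rats. Its treated rats stood clear of every control, and the difference was 0.98 within slide 1 and 0.70 within slide 2. Hbegf, a ligand of the EGF receptor, gave 0.45 (SE 0.11, limma adjusted p = 0.341). The list's median was 0.19 within slide 1 and 0.20 within slide 2. Targets of MYC gave 14 lower and 10 higher of 24 tested, with a median of -0.047 and 0 called. For 8 of these 24 the groups did not overlap with the treated rats below, and for 3 with the treated rats above, beside 12.1% and 7.38% of all features. Ldha, the lactate dehydrogenase subunit (-0.35, SE 0.10, limma adjusted p = 0.355), and Gnl3, a nucleolar GTPase (-0.20, SE 0.07, limma adjusted p = 0.376), had the smallest p. With quantile normalization the median of the MYC targets was 0.0054.

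**Figure D5:**
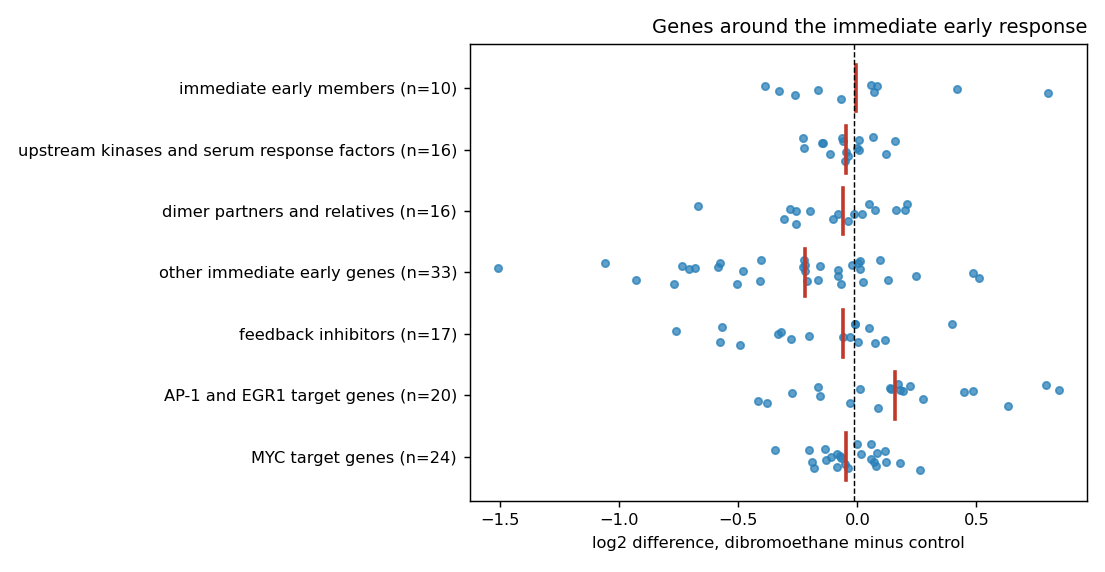
Difference of each tested gene (log2, dibromoethane minus control; points, shifted at random along the vertical for legibility) in the 10 immediate early genes and 6 lists around them, with the list's median as a red bar; the dashed line is the median of all tested features, -0.015. The other immediate early genes reach furthest to the left, with a median of -0.22, and the AP-1 and EGR1 targets have the most positive median, 0.16.

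Markers of the cell types of the tissue, and of liver, are given beside these values, with 0 genes called in each list. Transcripts abundant in liver were higher in treated rats for 15 of 15 tested genes (median 1.26), and their summed signal, in units of the array's 75th percentile, was 22.4 to 38.2 in controls and 36.5 to 86.1 in treated rats. Markers of the proximal tubule were lower for 10 of 12, with sums of 2315 to 2432 in controls and 2113 to 2158 in treated rats. Smooth muscle and fibroblast markers gave 6 of 8 higher, with sums of 25.5 to 31.7 and 31.3 to 34.4. For macrophage and myeloid markers 7 of 11 were lower, with sums of 87.5 to 97.9 and 88.9 to 95.7. Of blood cell markers 2 of 5 were lower, with sums of 193 to 224 and 140 to 169. Thick ascending limb markers gave 5 of 7 lower, with sums of 355 to 381 and 167 to 396. Podocyte markers gave 5 of 7 lower, with sums of 37.7 to 38.6 and 32.7 to 45.7, and endothelial markers 5 of 8 lower, with 81.5 to 90.4 and 75.4 to 84.2. Distal tubule and collecting duct markers gave 6 of 9 higher, with sums of 245 to 273 and 223 to 272, and inner medulla and urothelium markers 2 of 4 higher, with 0.94 to 1.20 and 1.03 to 1.16. The sums of the groups did not overlap for proximal tubule and blood cell markers and overlapped for the other 8 lists. A sum follows the brightest genes of its list, such as Hbb for blood cells (mean level 7.59 in controls) and Lyz2 for macrophages (6.19). It does not speak for every gene of the list. Genes whose groups did not overlap, with the treated rats below, numbered 6 of 12 for proximal tubule and 3 of 11 for macrophage and myeloid markers. The counts were 2 of 7 for thick ascending limb, 2 of 5 for blood cells, 1 of 7 for podocytes and 1 of 8 for endothelium. With the treated rats above they were 4 of 15 for liver, 3 of 8 for smooth muscle and fibroblasts and 2 of 9 for distal tubule and collecting duct. All other counts of these lists were 0, beside 12.1% of all features below and 7.38% above. The part of these cell types in the differences of the immediate early genes was not tested.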

How the data were processed

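Renal cortex RNA carried the Cy3 dye on Agilent arrays of 1 colour, 1 per rat, per the labels' protocols. Spot intensity came from the deposited scanner files, made with Feature Extraction 10.7.1.1, which had subtracted background, and built on rn4, per the file headers. A deposited series table of intensity equalled that signal over each array's 75th percentile (r = 1.000, log2) and served as an alternative.

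Of 62976 spots, 1439 controls and 84 spike-in probes were left out. Accessions gave 28206 probes a symbol of assembly GRCr8. Spots marked as outliers, 1 to 11 an array, became missing values, and 0 spots were saturated. The probe with the highest mean signal stood for its gene, and it was tested if every array of either group was well above background. The groups were compared in limma 3.58.1 (R 4.3.3; lmFit, eBayes; two-sided; 4 residual and 2.05 prior degrees of freedom), adjusted by Benjamini-Hochberg over all 28961 features. Other probes were read from a fit of each probe by itself. The number of arrays limits the precision. Alternatives varied scaling, background, filter, probe choice, slide, scan day, replicate block and arrays.

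Named were all members, the 3 genes nearest to Fos, and from each list at most 4 called genes, or 2 by smallest p if none was called; in marker lists the summed level is given instead. Outside this rule, and after their values were seen, Per1, Plk3, Cebpb, Nr4a1, Dusp1, Nab1, Hbb, Lyz2 and the untested Egr2, Egr3, Egr4, Nr4a3 and Fosl1 were named. The members and lists were chosen with earlier results of these data known.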

Additional observations from a re-analysis of the deposited data

How the results depend on the processing

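Under 15 alternatives and 6 fits that leave out 1 array, 0 of the 10 members were called in each, in limma, at smallest adjusted p from 0.238 (slide as a random block) to 0.823 (no filter), with 1 to 4 members at an unadjusted p under 0.05. Fos could not be tested with the filter on all 6 arrays. Fosb changed sign under 4 of these settings and Atf3 under 3, and the other 8 members under 0. The count of called features, 9, was 5 with median centring, 5 with normexp background correction, 2 without a filter, 0 with slide as a fixed block (3514 at an unadjusted p under 0.05), 0 on only the slides with both groups (3527), 2 with scan day as a fixed block and 17 with trend and robust. Leaving out 1 array gave 1 to 8. Without a filter 48892 features were tested, and blocks and left-out arrays take residual degrees of freedom; otherwise the cause was not tested. Both groups carry numbers 1 to 3 in the labels. Same-numbered rats deviated together at r = -0.19, 0.26 and 0.16 across genes, and differently numbered rats at -0.32 to 0.20. The pair at 0.26 also shared slide 1. The differently numbered pairs that shared a slide stood at 0.20 (slide 2) and 0.091 (slide 1). So few values cannot settle whether the numbers pair the rats, and the main fit did not pair them. With the replicate block, 0 features were called (3466 at an unadjusted p under 0.05) and 0 members. Normexp used the median spot signal. List medians under these settings were added after seeing the data: -0.25 to -0.083 for other immediate early genes, 0.090 to 0.22 for AP-1 and EGR1 targets, -0.10 to -0.0047 for upstream kinases, -0.11 to -0.022 for dimer partners, -0.21 to -0.030 for feedback inhibitors and -0.081 to 0.0054 for MYC targets.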
